A study of Mus musculus with 4 samples.

Results

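The genes described are the mu-class glutathione transferases Gstm1 to Gstm7 and 3 glutathione transferases of other classes, Gsto1, Mgst1 and Mgst3, as they were expressed in the liver of mouse F1 hybrids. They were taken by gene name, with no limit on their values, and all 10 were listed among the 8797 genes measured in each mouse. The hybrids were females of 5 months, bred from the inbred strains B6 (C57BL/6J) and MSM (MSM/Ms), which derive from different subspecies. In the first cross the mother was MSM and the father B6 (MSM mother x B6 father, 2 mice, called the MSM-mother cross here), and in the reciprocal cross the mother was B6 and the father MSM (B6 mother x MSM father, 2 mice, the B6-mother cross). No treatment or engineered allele is named for any mouse. Each mouse carried a chromosome set of each strain, so that both alleles of a gene were exposed to the same cell contents. The polyadenylated RNA of whole liver was sequenced, and for each gene and mouse an expression level in FPKM (fragments scaled to transcript length and library size) and a B6-allele frequency were given. The B6-allele frequency is the fraction of the reads assigned to an allele that came from the B6 allele, so 0.5 means equal use, 1 means B6 only and 0 means MSM only. A mean frequency is the average of the means of the crosses.

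Glutathione transferases join the tripeptide glutathione to electrophilic compounds, which makes drugs, toxins and products of lipid peroxidation more soluble and easier to export. The mu class is a family of soluble enzymes that act as dimers, and in the mouse its genes lie side by side in a cluster that arose by gene duplication. Liver is rich in these enzymes, and several of them are induced through Nfe2l2 (Nrf2), a transcription factor that answers to oxidants and electrophiles. Gsto1 belongs to the omega class, whose members reduce dehydroascorbate and protein mixed disulfides more than they conjugate. Mgst1 and Mgst3 are not related to the soluble enzymes in sequence. They belong to a family of small membrane proteins, and Mgst1 is an abundant protein of the endoplasmic reticulum and the outer mitochondrial membrane of hepatocytes.

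The values come from 4 libraries whose FPKM over all genes summed to 529024 to 671875 and whose median frequency lay between 0.509 and 0.512. The numbers of reads were not used here, so the depth behind a single value is unknown and no interval is given for it. Of the 8797 genes, 3632 had a frequency in every mouse and 5165 lacked it throughout. These genes were spread unevenly. On the distal side of 100 Mb on chromosomes 1 to 15 and X, or of 10 Mb on chromosomes 16 to 19, 3527 of 3929 genes (89.8%) had a frequency, while on the proximal side 96 of 4849 genes (1.98%) had it. All 10 glutathione transferases described here lay on the distal side and had a frequency in every mouse. The median SD of the frequency over the 4 mice was 0.0266 on the distal side and 0.289 on the proximal side. The hepatocyte markers Apoa1, Ttr, Serpina1a and Ass1 were expressed in all mice, Cyp2e1 was listed at 0 in both mice with an MSM mother and at 4876 and 6541 FPKM in the others, and Alb was not among the genes given. Markers fixed for other cells were low beside a hepatocyte sum of 14734 to 21537 FPKM, with 108 to 154 for 4 of 5 Kupffer cell markers, 99.2 to 119 for 5 of 5 sinusoidal endothelium markers, 68.6 to 99.5 for 2 of 4 stellate cell markers and 45.2 to 159 for 3 of 4 erythroid markers. None of the 4 cholangiocyte and 4 lymphocyte markers was among the genes given.

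The 7 Gstm genes lie on chromosome 3 of mm10, at chr3:107895821-108044894, a span of 149 kb that holds no other protein-coding gene in the GENCODE M21 annotation but also 3 unprocessed and 4 processed pseudogenes. From the centromeric end, Gstm5 (chr3:107895821-107898686) is on the plus strand. It is followed on the minus strand by Gstm7 (chr3:107926334-107931817), Gstm6 (chr3:107938847-107943749), Gstm3 (chr3:107963696-107969283), Gstm2 (chr3:107981702-107986453), Gstm1 (chr3:108012255-108017973) and Gstm4 (chr3:108040408-108044894). Gstm7 and Gstm6 are the closest neighbors, with 7.03 kb between them, and the other gaps are 12.4 to 27.6 kb. Gsto1 (chr19:47854970-47864790, plus strand), Mgst1 (chr6:138140316-138156755, plus strand) and Mgst3 (chr1:167371966-167393841, minus strand) lie on other chromosomes. All 10 are annotated as protein-coding.

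How alike the Gstm copies are matters for reading their values, because the study placed each read at no more than 1 site. In the B6 reference the coding sequences of pairs of Gstm genes were 68.0% to 89.5% identical (median 82.3% of 21 pairs), against 40.6% to 50.9% for the 24 pairs that involve Gsto1, Mgst1 or Mgst3. The most alike pair was Gstm1 and Gstm3, at 89.5%. The pair shares an unbroken run of 112 coding bases, from base 389 to base 500 of the 657 coding bases of each gene, in exons 6 and 7. The longest identical run of any pair was 125 coding bases, from base 169 to base 293, in Gstm3 and Gstm6, which were 84.5% identical over the coding sequence. The stretch of Gstm1 and Gstm3 is printed to show what a read could and could not tell apart. Each line is the coding strand of the mm10 reference (B6) without the intron that separates the exons, and capitals mark bases that differ from Gstm1 at the same coding position. The genomic interval, all on the minus strand, is chr3:108014820-108015012 for Gstm1, chr3:107966154-107966346 for Gstm3, chr3:107984003-107984196 for Gstm2, chr3:107928937-107929130 for Gstm7, chr3:107941060-107941256 for Gstm6 and chr3:108042203-108042394 for Gstm4.
Gstm1: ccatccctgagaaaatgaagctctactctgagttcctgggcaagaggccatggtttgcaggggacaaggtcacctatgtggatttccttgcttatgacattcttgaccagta
Gstm3: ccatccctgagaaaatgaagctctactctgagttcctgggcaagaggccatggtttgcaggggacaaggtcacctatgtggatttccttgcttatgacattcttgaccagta
Gstm2: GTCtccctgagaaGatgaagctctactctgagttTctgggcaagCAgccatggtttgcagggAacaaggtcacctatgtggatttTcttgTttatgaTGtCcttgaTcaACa
Gstm7: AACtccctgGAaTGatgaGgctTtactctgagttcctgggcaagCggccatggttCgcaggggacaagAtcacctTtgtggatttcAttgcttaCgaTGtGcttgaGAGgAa
Gstm6: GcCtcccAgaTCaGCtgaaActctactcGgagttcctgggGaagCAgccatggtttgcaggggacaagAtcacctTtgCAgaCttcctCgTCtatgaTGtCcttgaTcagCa
Gstm4: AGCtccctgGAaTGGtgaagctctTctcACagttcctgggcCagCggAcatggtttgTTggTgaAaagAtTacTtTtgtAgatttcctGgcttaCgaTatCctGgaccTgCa
Gstm3 differed from Gstm1 at 0 of these bases, Gstm2 at 16, Gstm7 at 22, Gstm6 at 25 and Gstm4 at 30. Gstm5, whose coding sequence is 675 bases long, is not shown because its alignment with the others holds gaps.

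Over whole transcripts the overlap was smaller. A window of 150 bases, the length of a read before trimming, was slid along each member's principal transcript. It was compared with the transcripts of all other annotated genes. Reads were sequenced in pairs and trimmed, and neither the mate of a read nor shorter reads were considered. No window of Gstm2, Gstm4, Gstm5, Gstm6, Gstm7, Gsto1, Mgst1 or Mgst3 came within 2 mismatches of another gene. In Gstm1, 215 of 1140 windows (18.9%) did, of which 103 matched Gstm3, 178 the processed pseudogene Gstm2-ps1 on chromosome 5 and 56 the processed pseudogene Gm8834 on chromosome 10, with some windows matching more than 1 of them. In Gstm3, 268 of 1162 windows (23.1%) did, and 40 of the 1162 (3.44%) were identical in Gm8834. The values of Gstm1 and Gstm3 are therefore uncertain to the extent that such reads were placed at another copy. The MSM sequence of these genes was not analysed here, so the same count for MSM reads is not known.

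The Gstm genes did not share a direction of allele use. Gstm2, Gstm3, Gstm5 and Gstm6 were expressed mainly from the B6 allele, Gstm1 slightly more from B6, Gstm4 moderately more from MSM, and Gstm7 mainly from MSM. In every sentence of frequencies that follows, the values of the 4 mice are given in the order replicates 1 and 2 of the MSM-mother cross, then replicates 1 and 2 of the B6-mother cross.

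On the B6 side, the B6-allele frequency of Gstm3 was 0.968, 0.964, 0.973 and 0.989, with a mean of 0.974 ± 0.0108 (SD, n = 4 mice). Gstm2 had frequencies of 0.866, 0.874, 0.858 and 0.886 (mean 0.871 ± 0.0118). Every mouse was at 0.858 or above in both genes, and the lowest value of Gstm3 lay above the highest of Gstm2. Gstm5 was at 0.902, 0.909, 0.830 and 0.830 (mean 0.868 ± 0.0436), so that the mice with an MSM mother were higher than those with a B6 mother. Gstm6 had the same order, at 0.824, 0.840, 0.758 and 0.782 (mean 0.801 ± 0.0378). On the odds scale the mean imbalance was 5.33 (SE 0.25) in log2 units for Gstm3, 2.77 (SE 0.05) for Gstm5, 2.76 (SE 0.08) for Gstm2 and 2.03 (SE 0.07) for Gstm6. Each was larger than the spread between mice of a cross, with adjusted p-values of 0.00393, 0.000555, 0.00193 and 0.00219 (limma with Benjamini-Hochberg adjustment over the 3632 genes).

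On the MSM side, Gstm7 had frequencies of 0.166, 0.188, 0.190 and 0.184 (mean 0.182 ± 0.0110, n = 4 mice), below 0.2 in every mouse. Its log2 odds were -2.17 (SE 0.06, limma adjusted p = 0.00159). Gstm4 was at 0.376, 0.353, 0.357 and 0.349 (mean 0.359 ± 0.0119), and its log2 odds were -0.84 (SE 0.05, limma adjusted p = 0.00491). Both genes lay below 0.5 in all 4 mice, and all mice of Gstm7 lay below all mice of Gstm4. Gstm1, the most highly expressed gene of the cluster, was at 0.587, 0.573, 0.542 and 0.577 (mean 0.570 ± 0.0197). Its log2 odds of 0.41 (SE 0.06, limma adjusted p = 0.0206) were the smallest among the Gstm genes, with all 4 mice above 0.5.

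Outside the mu class, Gsto1 was at 0.668, 0.643, 0.644 and 0.630 (mean 0.646 ± 0.0160), above 0.5 in all mice (log2 odds 0.87, SE 0.05, limma adjusted p = 0.00523). Mgst3 was at 0.379, 0.389, 0.369 and 0.353 (mean 0.373 ± 0.0155), below 0.5 in all mice (log2 odds -0.75, SE 0.05, limma adjusted p = 0.00523). Mgst1 was at 0.529, 0.667, 0.643 and 0.357 (mean 0.549 ± 0.141), with replicate 2 of the B6-mother cross below 0.5 and the others above it. Its log2 odds of 0.29 (SE 0.37) did not differ from 0 beyond the spread between mice (limma adjusted p = 0.564). Mgst1 had by far the highest expression of the 10 genes, and its SD over mice was larger than that of 98.3% of the distal genes. Of the 37 distal genes with a mean of at least 1000 FPKM, it had the second largest SD, where the median SD was 0.0135. The FPKM of a gene does not tell how many of its reads were assigned to an allele. The frequencies of Mgst1 match fractions of small whole numbers, which few allele-assigned reads would give, and this was not tested.

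**Figure D1:**
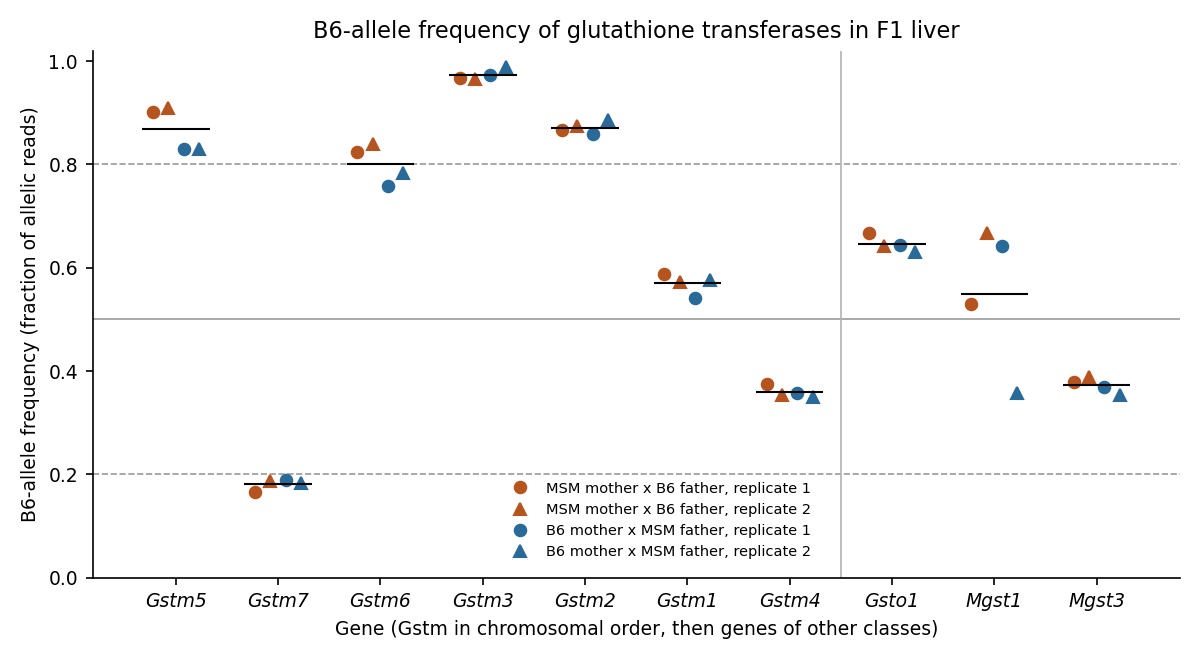
B6-allele frequency (vertical axis, fraction of allele-assigned reads) of the 7 Gstm genes in chromosomal order and of Gsto1, Mgst1 and Mgst3. Each point is a mouse, colors give the cross and symbols the replicate, black bars are the means of the 4 mice, the solid line is equal use of the alleles and dashed lines mark 0.8 and 0.2. Gstm3 sits at 0.964 to 0.989 and Gstm7 at 0.166 to 0.190, while the mice of Mgst1 are scattered from 0.357 to 0.667.

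Of the 10 genes, 6 were called for imbalance toward the B6 allele (Gstm1, Gstm2, Gstm3, Gstm5, Gstm6 and Gsto1), where 22.6% of the 3632 genes with a frequency were called in that direction. Toward the MSM allele 3 were called (Gstm4, Gstm7 and Mgst3), where 13.6% of all genes were. The median absolute log2 odds was 1.45 over the 10 genes and 2.17 over the Gstm genes, against 0.24 over all genes. Leaving out a mouse lowered the number of genes called, among all genes and among these 10. Without replicate 1 or without replicate 2 of the B6-mother cross, 5 of the 10 were called, and Gstm1, Gstm4, Gsto1 and Mgst3 had limma adjusted p-values of 0.0540 to 0.0966. Without either mouse of the other cross, 8 were called, and the adjusted p of Gstm1 was 0.0921 and 0.0811. Gstm2, Gstm3, Gstm5, Gstm6 and Gstm7 were called under each of these omissions.

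The study set a mean frequency of at least 0.8 or at most 0.2 as the limits of allele-biased expression. Above the upper limit lay 4 members, Gstm2, Gstm3, Gstm5 and Gstm6, where 1.84% of all genes did. Below the lower limit lay Gstm7 alone, where 1.35% of all genes did. Both shares were counted here from the mean frequencies, and the study reports somewhat more genes past each limit. In every single mouse, Gstm2, Gstm3 and Gstm5 stayed above the upper limit and Gstm7 below the lower limit, while Gstm6 was just above it in the mean, and its mice with a B6 mother were below it. At stricter limits of 0.9 and 0.1, Gstm3 remained as the only member past either limit. Among the members between the limits, Gsto1 at 0.646 was nearest to the upper and Gstm4 at 0.359 nearest to the lower.

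In order of mean frequency the genes ran from Gstm3 through Gstm2, Gstm5, Gstm6, Gsto1, Gstm1, Mgst1, Mgst3 and Gstm4 to Gstm7. Gstm2 and Gstm5 overlapped between mice, as did Gstm5 and Gstm6, Gstm1 and Mgst1, Mgst1 and Mgst3, and Mgst3 and Gstm4, so the order within these neighbors is not settled. Differences between paralogs were then taken within each mouse. Of the 21 pairs of Gstm genes, 20 differed in the same direction in all 4 mice. The exception was Gstm2 and Gstm5, which differed by 0.00317 ± 0.0461 (SD, n = 4; exact sign-flip permutation p = 1). The largest difference was 0.792 ± 0.0137, between Gstm3 and Gstm7. Gstm6 and Gstm7, adjacent on the chromosome, differed by 0.619 ± 0.0436, with a lowest value of 0.568 in a mouse. Gstm2 and Gstm1, also adjacent, differed by 0.301 ± 0.0165, and Gstm1 and Gstm4 by 0.211 ± 0.0187.

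The paralogs were also compared with the transferases of other classes in the same mice. Of the 21 pairs of a Gstm gene with Gsto1, Mgst1 or Mgst3, the Gstm gene was higher in all 4 mice in 13 and lower in all 4 in 7. The exception was Gstm1 with Mgst1, which differed by 0.0208 ± 0.152 (exact permutation p = 0.875), higher in 2 mice and lower in 2. Gstm3 exceeded Mgst3 by 0.601 ± 0.0260, the largest of these differences, and Gstm7 fell short of Gsto1 by 0.464 ± 0.0257 (Gstm7 minus Gsto1, -0.464). Gstm4 and Mgst3 differed least among the pairs with a common direction, by -0.0138 ± 0.0154, which is less than the SD over mice. With 4 mice, an exact two-sided sign-flip permutation test cannot pass 0.05, and the pairs with a common direction all have the smallest p it allows, which is 0.131 once adjusted over each family of 21 pairs.

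The span around the cluster was examined for the same pattern. Within 250 kb of a Gstm gene, 5 other genes had a frequency. Proximal to the cluster, Ahcyl1, related to the enzyme that hydrolyzes S-adenosylhomocysteine, was at 0.490 ± 0.0111 (SD, n = 4 mice; limma adjusted p = 0.412) and Csf1, which encodes a macrophage growth factor, was at 0.609 ± 0.0389 (adjusted p = 0.0117). Distal to it, Ampd2, an AMP deaminase, was at 0.406 ± 0.0196 (limma adjusted p = 0.0110), Gnai3, a G protein subunit, was at 0.545 ± 0.0176 (adjusted p = 0.0565) and Psma5, a proteasome subunit, was at 0.527 ± 0.0385 (adjusted p = 0.30). All 5 means lay between 0.406 and 0.609. Counts for the other members were few, with 1 neighbor with a frequency near Gsto1, 0 near Mgst1 and 4 near Mgst3, at means of 0.439 to 0.829.

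**Figure D2:**
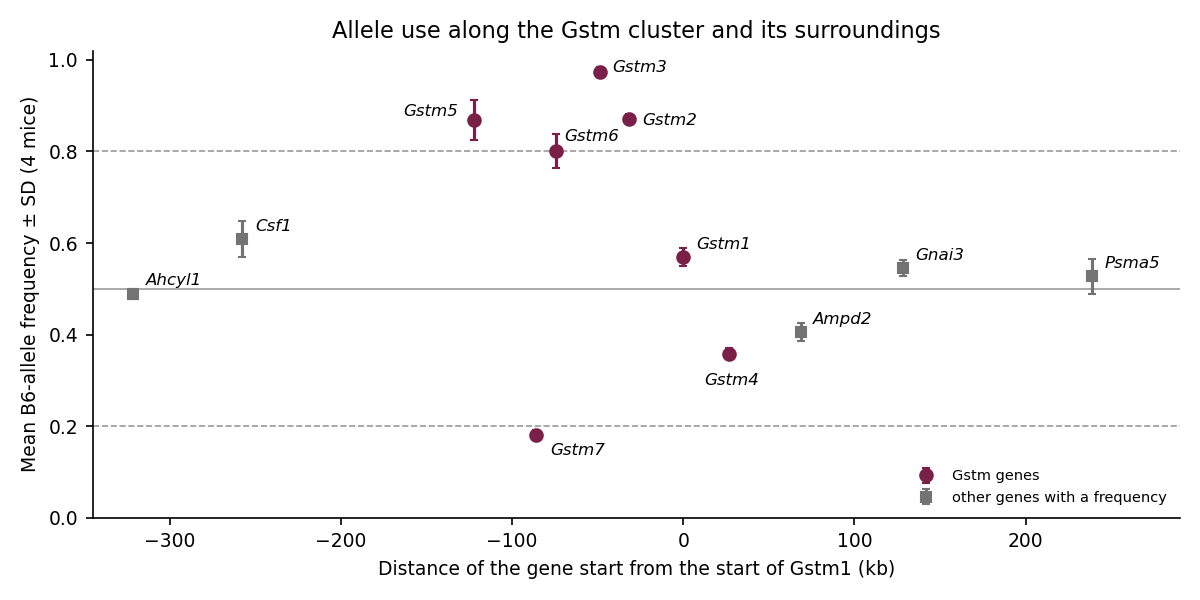
Mean B6-allele frequency (vertical axis, bars are SD over 4 mice) against the distance of each gene's annotated start from that of Gstm1 in kb (horizontal axis). Circles are Gstm genes and squares the other genes with a frequency within 250 kb of one. Gstm7 at 0.182 lies between Gstm5 at 0.868 and Gstm6 at 0.801, while the squares stay between 0.406 and 0.609.

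The sequence in front of the start site is printed for Gstm7 and Gstm6, since these adjacent genes lay on opposite sides in every mouse. Both lines are the 250 bases before the start in RefSeq annotation of GRCm38.p6 (the assembly of mm10), on the minus strand, at chr3:107931818-107932067 for Gstm7 and chr3:107943735-107943984 for Gstm6. There were 2 such windows for Gstm7 and 3 for Gstm6. For each member the window nearest to the GENCODE start was taken, and other starts were not examined. Capitals mark matches, on either strand, to any of 4 motifs that were searched, the antioxidant response element core TGACNNNGC, the TATA box TATAAA, the CCAAT box CCAAT and the GC box GGGCGG.
Gstm7: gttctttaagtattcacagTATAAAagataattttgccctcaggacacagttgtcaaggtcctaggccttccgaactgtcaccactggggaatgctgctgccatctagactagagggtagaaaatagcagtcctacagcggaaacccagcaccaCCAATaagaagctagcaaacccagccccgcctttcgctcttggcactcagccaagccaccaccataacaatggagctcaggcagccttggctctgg
Gstm6: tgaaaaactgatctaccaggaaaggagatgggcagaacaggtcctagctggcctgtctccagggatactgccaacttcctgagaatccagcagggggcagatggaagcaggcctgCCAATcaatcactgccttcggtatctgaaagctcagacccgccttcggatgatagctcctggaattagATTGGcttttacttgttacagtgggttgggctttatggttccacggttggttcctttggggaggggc
The Gstm7 window holds TATAAA 231 to 226 bases before the start and CCAAT 96 to 92 bases before it. In the Gstm6 window, CCAAT stands 135 to 131 bases before the start and, on the opposite strand, 67 to 63 bases before it. These are the B6 reference letters, and no MSM sequence was set beside them. The search took matches at any position in the 250 bases, so a match does not show that the motif acts there. The windows were 48.8% identical, and over all pairs of Gstm genes the identity was 42.7% to 51.6%. All 10 members had a window. The CCAAT box was found in 5 of 7 Gstm windows, and in 33.8% of the 32851 windows of all genes. The GC box was found in 3 of 7 (32.7% of all), the TATA box in 1 of 7 (12.4% of all) and the antioxidant response element core in 1 of 7 (10.2% of all), namely Gstm5, 42 to 34 bases before the start. Of the others, Mgst1 held that core 56 to 48 bases before the start on the opposite strand, and Gsto1, Mgst1 and Mgst3 each held a GC box.

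Expression spanned a wide range. Mean FPKM fell in the order Mgst1, Gstm1, Gstm7, Mgst3, Gsto1, Gstm6, Gstm2, Gstm4, Gstm3 and Gstm5, and the values of the mice overlapped between neighbors only from Mgst3 to Gstm4. In the order of mice used above, Mgst1 had 4614, 3433, 2694 and 2830 FPKM (mean 3393 ± 875), and Gstm1 had 694, 697, 972 and 784 FPKM (mean 787 ± 130). Gstm7, the gene expressed mainly from MSM, had 194, 147, 160 and 153 FPKM (mean 164 ± 20.6). These were higher in every mouse than all remaining members. Mgst3 (75.2 ± 13.1 FPKM), Gsto1 (74.8 ± 8.14), Gstm6 (67.6 ± 6.95), Gstm2 (57.1 ± 16.4) and Gstm4 (53.7 ± 11.1) formed a middle group. Gstm3 had 16.5, 14.4, 19.1 and 14.7 FPKM (mean 16.2 ± 2.17) and Gstm5 had 9.29, 5.75, 6.15 and 7.19 FPKM (mean 7.09 ± 1.58). Mgst1 lay above 99.8% of the 8797 genes in mean FPKM, Gstm1 above 98.7% and Gstm5, the lowest member, above 33.8%.

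**Figure D3:**
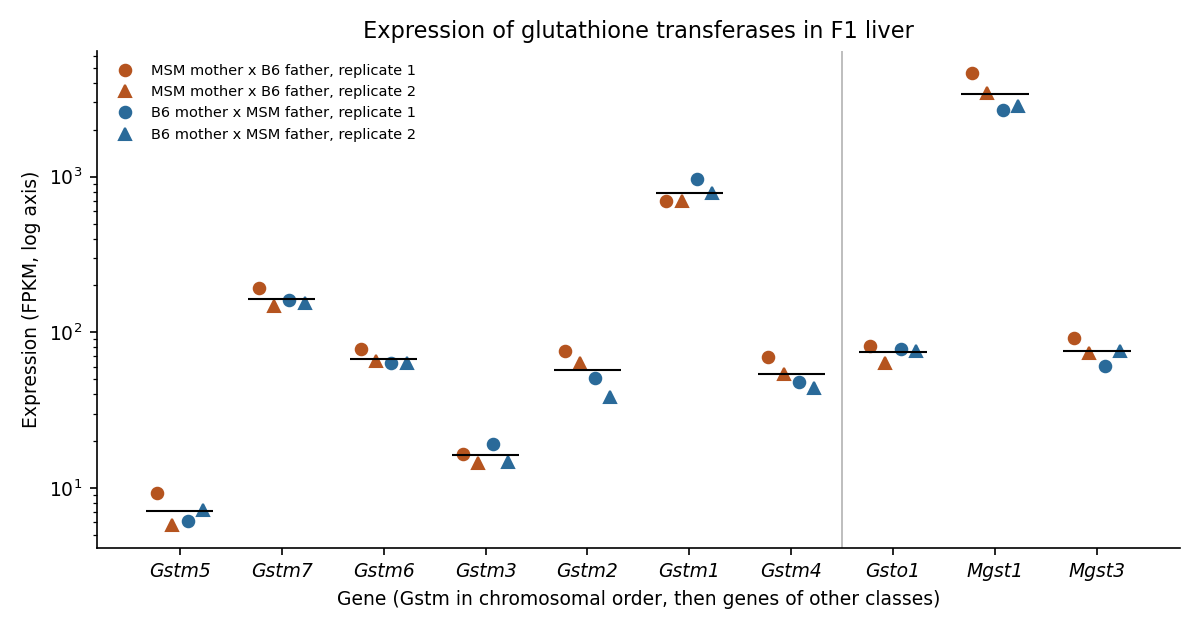
Expression of the 10 genes in FPKM (vertical axis, log scale). Each point is a mouse, with colors for the cross and symbols for the replicate, and black bars are the means of the 4 mice. Mgst1 at 2694 to 4614 and Gstm1 at 694 to 972 stand above Gstm7 at 147 to 194, and Gstm5 is lowest at 5.75 to 9.29.

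Multiplying the FPKM of a gene by its frequency, and by 1 minus its frequency, gives the part of its expression that belongs to the B6 and to the MSM allele, on the assumption that reads over differing bases stand for the whole transcript. For Gstm3 the B6 part averaged 15.7 ± 2.10 FPKM (SD, n = 4 mice) and the MSM part 0.429 ± 0.176 FPKM, a ratio of 36.7. The ratio was 27.2 to 87.7 in single mice, where the MSM part was only 0.166 to 0.535 FPKM. Small changes in so low a part move the ratio strongly, and the ratio carries the uncertainty of Gstm3 given above. For Gstm2 the parts were 49.7 ± 14.0 and 7.44 ± 2.42 FPKM (ratio 6.68). The parts of Gstm5 were 6.17 ± 1.52 and 0.925 ± 0.297 FPKM (ratio 6.67), and those of Gstm6 were 54.3 ± 7.28 and 13.4 ± 2.05 FPKM (ratio 4.06). Gstm7 had the reverse, with 29.6 ± 2.05 FPKM from B6 and 134 ± 18.7 FPKM from MSM. Its MSM part was 4.53 times the B6 part, and 4.26 to 5.03 times in single mice. The MSM part exceeded the B6 part 1.77 times for Gstm4 and 1.68 times for Mgst3, and the B6 part exceeded the MSM part 1.31 times for Gstm1 and 1.83 times for Gsto1. For Mgst1 the parts were 1869 ± 648 and 1524 ± 568 FPKM, and their ranges over the mice overlapped. This split of Mgst1 carries the uncertainty of its frequencies, which may rest on few allele-assigned reads in spite of the high FPKM.

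**Figure D4:**
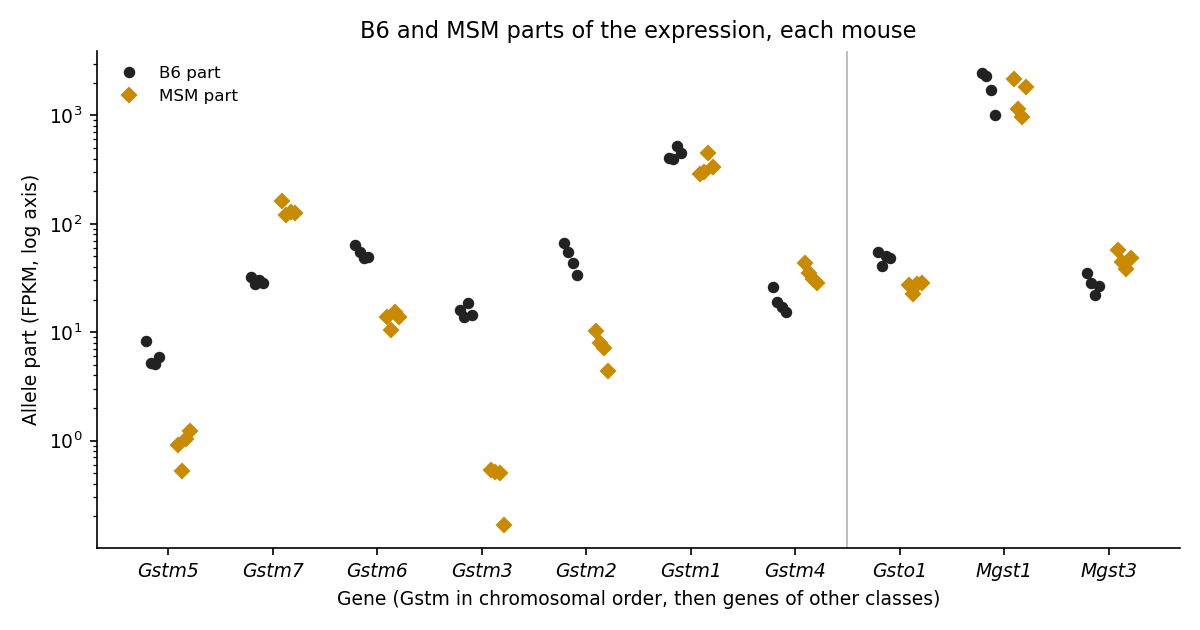
B6 part (circles) and MSM part (diamonds) of the expression of each gene in FPKM (vertical axis, log scale), with a point per mouse. The B6 and MSM parts are farthest apart in Gstm3, at 13.9 to 18.6 against 0.166 to 0.535, and the order is reversed in Gstm7, at 27.7 to 32.1 against 120 to 161.

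Summed over the whole cluster, the B6 and MSM parts were close in size. The FPKM of the 7 Gstm genes summed to 1152 ± 118 (range 1047 to 1319, n = 4 mice), of which Gstm1 made 68.1% ± 5.51 and Gstm7 14.3% ± 2.02. The summed B6 part was 621 ± 48.8 FPKM and the summed MSM part 531 ± 68.9 FPKM, so that the B6 share of the family was 0.540 ± 0.0122, between 0.522 and 0.550 in the mice. Without Gstm1 it was 0.478 ± 0.0187, between 0.460 and 0.503. Gstm7 made 25.5% ± 4.39 of the MSM part of the family, and Gstm1 made 71.7% ± 5.06 of its B6 part. FPKM are comparable between genes per length of transcript, and these sums carry the uncertainty of Gstm1 and Gstm3 given above.

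Likeness of sequence and likeness of allele use were set side by side for the 21 pairs of Gstm genes. Gstm1 and Gstm3, the most alike in coding sequence, differed by 0.404 in mean frequency. Gstm2 and Gstm7 were 85.3% identical and differed by 0.689, whereas Gstm2 and Gstm6 were 86.0% identical and differed by 0.0699. Gstm2 and Gstm5 were 71.0% identical and differed by 0.00317. Pairs of similar identity thus had both small and large differences. The 21 pairs come from 7 genes and are not independent.

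**Figure D5:**
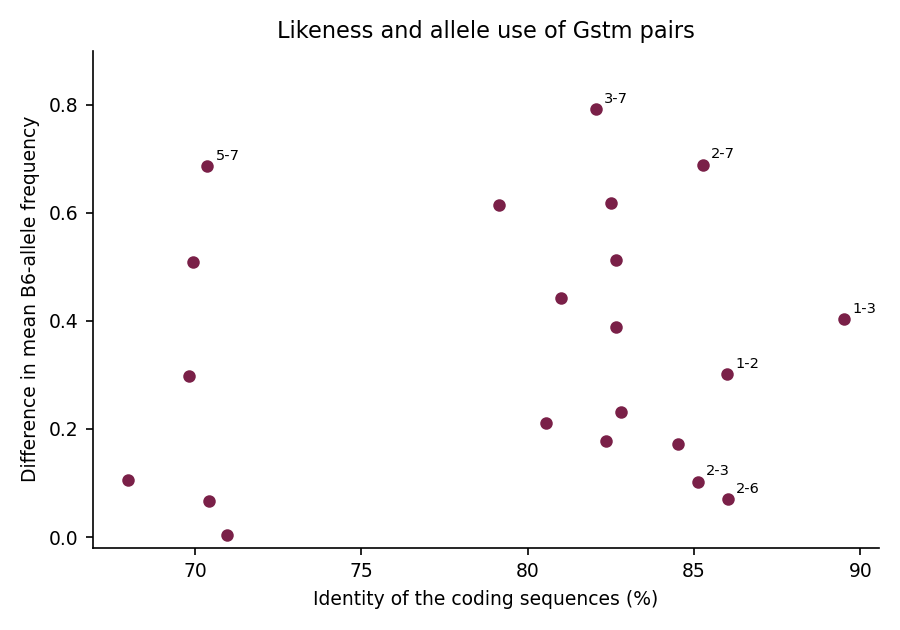
Identity of the coding sequences of each pair of Gstm genes in percent (horizontal axis) and absolute difference of their mean B6-allele frequencies (vertical axis). Each point is a pair, and labels give the numbers of the genes for pairs over 85% identical or over 0.65 apart. Gstm1 and Gstm3, farthest right at 89.5%, differ by 0.404, and Gstm3 and Gstm7, at 82.0%, differ by 0.792.

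The reciprocal crosses exchange which parent gave each allele. A difference between them could come from the parent, from the cross or from anything else in which the mice of the crosses differed. With 2 mice in each cross, these cannot be told apart. For allele frequency, 0 of the 10 genes were called between the crosses by limma at an adjusted p under 0.05, where 0.0826% of the 3632 genes were (3 genes), and 2 members had an unadjusted p under 0.05. The first was Gstm5, whose frequency was higher in both mice with an MSM mother, by 0.97 in log2 odds (SE 0.09, unadjusted p = 0.00121, limma adjusted p = 0.441). The second was Gstm6, higher by 0.56 (SE 0.13, unadjusted p = 0.0187, limma adjusted p = 0.873). The mice of the crosses did not overlap in 4 of the 10 genes, with Gstm5, Gstm6 and Mgst3 higher and Gstm3 lower with an MSM mother, and in 34.3% of all genes. Over all genes tested, 190 had an unadjusted p under 0.05. With 2 mice against 2, the smallest p of an exact two-sided permutation test is 0.333.

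For expression, 0 of the 10 genes were called between the crosses (limma on log2(FPKM + 1), adjusted p under 0.05), where 0.0455% of the 8797 genes were (4 genes). At an unadjusted p under 0.05 there were 2 members and 780 genes in the table. Gstm2 had 76.3 and 63.4 FPKM with an MSM mother and 50.5 and 38.2 FPKM with a B6 mother. Its log2 difference was 0.65 (SE 0.19, unadjusted p = 0.0136, limma adjusted p = 0.459). Gstm4 had 69.1 and 54.0 FPKM against 48.0 and 43.6 FPKM, a log2 difference of 0.41 (SE 0.17, unadjusted p = 0.0497, limma adjusted p = 0.561). In Gstm2 and Gstm4, both mice with an MSM mother lay above both others, and this also held for Gstm6 and Mgst1, while Gstm1 was lower in both. The mice of the crosses thus did not overlap in 5 of the 10 genes, and in 42.4% of all genes. Mgst1 differed by 0.53 (SE 0.23, limma adjusted p = 0.578) and Gstm1 by -0.33 (SE 0.19, limma adjusted p = 0.625). Scaling each mouse to the same sum of FPKM moved the median difference of all genes by -0.12, and on that scale Gstm7 went from 0.11 to -0.02. In whole tissue, fewer cells of a type and less RNA per cell cannot be told apart. The summed Kupffer cell markers were 117 and 108 FPKM with an MSM mother and 154 and 143 FPKM with a B6 mother, and the summed stellate cell markers were 99.5 and 82.9 FPKM against 68.6 and 77.7 FPKM, so that neither list overlapped between the crosses. The same held for the sinusoidal endothelium markers, at 108 and 99.2 FPKM against 113 and 119 FPKM, while the erythroid markers overlapped. Not every marker followed its sum. Each Kupffer cell marker listed was lower in both mice with an MSM mother. Of the stellate cell markers, Dcn was higher in both and Rgs5 overlapped. Of the sinusoidal endothelium markers, Stab2, Kdr and Pecam1 were lower in both, and Clec4g and Lyve1 overlapped. The hepatocyte sum was 15138 and 14734 FPKM against 15851 and 21537 FPKM, and 15138 and 14734 FPKM against 10975 and 14996 FPKM without Cyp2e1, so that it overlapped without that gene. Apoa1, Ttr and Ass1 were higher in both mice with an MSM mother, and Serpina1a overlapped. Their part in these values was not tested.

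The rest of the glutathione system was described from a list of 53 genes for glutathione synthesis, its other transferases, peroxidases, glutaredoxins, export pumps and genes of the oxidant response. Of these, 43 were listed in the files. A frequency was given for 17, namely 15 of the 18 that lay on the distal side of the limits above and 2 of the 25 on the proximal side. The transferases Gsta1, Gsta2, Gsta4, Gstp1, Gstp2, Gstt1, Gstt2, Gstt3, Gstz1 and Gstk1 had an expression value but no frequency. Of the 17, 6 were called toward the B6 allele (Gclm, Gpx1, Glrx3, Srxn1, Ggact and Bach1), 5 toward MSM (Cbs, Glo1, Nqo1, Glrx5 and Prdx6) and 6 were not called, with the shares of all genes called given above. None of the 17 had a mean past 0.8 or 0.2. Of all genes, 1.84% were at 0.8 or above and 1.35% at 0.2 or below, so none among 17 is near those shares.

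Gclm, the modifier subunit of the enzyme that limits glutathione synthesis, was at 0.617 ± 0.0110 (SD, n = 4 mice; log2 odds 0.69, SE 0.05, limma adjusted p = 0.00656), the farthest from 0.5 of the called genes. Cbs, which starts the conversion of homocysteine to cysteine, was at 0.400 ± 0.00617 (log2 odds -0.59, SE 0.04, limma adjusted p = 0.00669), and Glo1, which detoxifies methylglyoxal together with glutathione, was at 0.406 ± 0.00517 (log2 odds -0.55, SE 0.04, limma adjusted p = 0.00669). Nqo1, a quinone reductase, was at 0.408 ± 0.0329, and Glrx5, a mitochondrial glutaredoxin, at 0.445 ± 0.0255. The peroxidase Gpx1 was at 0.572 ± 0.00110, Glrx3 at 0.569 ± 0.0223, the sulfiredoxin Srxn1 at 0.551 ± 0.0111 and Ggact, which acts on glutamylamines, at 0.542 ± 0.0160. Bach1, a repressor of oxidant response genes, was at 0.535 ± 0.0177. Among these 10 genes the frequencies ran from 0.400 to 0.617, inside the interval between Gstm4 and Gsto1. The median absolute log2 odds of the 17 genes was 0.32, against 0.24 over all genes and 2.17 over the Gstm genes.

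For the 4 genes past a limit in every mouse, the genes of the whole table with the most similar frequencies were looked up, by the mean absolute difference over the 4 mice. Nearest to Gstm3 were the cytochrome P450 genes Cyp3a59 (mean difference 0.00948) and Cyp39a1 (0.0124) and the sodium channel subunit Scnn1a (0.0120). Emc7 (0.0188), Pkd2 (0.0199) and Cyp17a1 (0.0224) were nearest to Gstm2, and Pkd2 (0.0375), Lyz2 (0.0379) and Gstm2 itself (0.0387) were nearest to Gstm5. For Gstm7 they were Rwdd3 (0.0155), Hirip3 (0.0232) and Tfcp2l1 (0.0284). Except for Gstm2 and Rwdd3, these genes lie on other chromosomes. The likeness rests on 4 values a gene.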

How the data were processed

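The authors mapped trimmed reads (Trim Galore!) to a SNP-masked mm10 genome with Tophat2, keeping at most 1 alignment a read, assigned them to alleles with SNPsplit and counted them with Cuffdiff. Tool versions are not given in the sources used here. The deposited values are FPKM, as estimated by the authors, and a fraction, the B6-allele frequency. No counts were used, so depth is unknown and precision was taken from the spread between mice. The limma p-values weigh an effect against the spread between mice of a cross, which limma moderates with the spread of all genes.

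Imbalance and cross differences were tested with limma 3.58.1 (R 4.3.3), two-sided, with Benjamini-Hochberg adjustment at 0.05. Frequencies were limited to 0.01 to 0.99 and fitted as log2 odds over all genes with a frequency, with cross as a term. FPKM were fitted as log2(FPKM + 1), with a trend, for genes with a mean of at least 1 FPKM, and this scale understates changes of low genes. On simulated data, 181 of 200 genes with log2 odds of 2 were recovered for imbalance (10 false calls), 190 of 200 with a difference of 6 between crosses in frequency (14 false) and 177 of 200 with a log2 difference of 2 in expression (8 false). The members' differences between crosses were smaller, the largest being -0.99 in log2 odds (Gstm3) and 0.65 in expression (Gstm2). Recovery at those sizes was not simulated.

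Positions came from GENCODE M21 for 8434 genes and from RefSeq for 344, and 19 had none. Coding sequences are those of the principal transcripts, and promoters are those of RefSeq. Python 3.11.15, numpy 2.4.6, pandas 2.3.3, Biopython 1.88 and matplotlib 3.10.9 were used. The genes, lists and limits were chosen with earlier results of these data known. Named beside the members are genes of the glutathione list called for imbalance (at most the 10 farthest from 0.5), genes with a frequency within 250 kb of a Gstm gene and the 3 genes nearest in frequency to each member past 0.8 or 0.2 in every mouse. Other limits, scales, filters, pseudocounts, scalings, leaving out each mouse and a block by replicate number were tried.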

Additional observations from a re-analysis of the deposited data

How the results depend on the processing

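The direction and call of Gstm2, Gstm3, Gstm5, Gstm6 and Gstm7 for imbalance held under each alternative tried. The number of mice limits what any test can show, and the depth behind each frequency is unknown.

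Of all 3632 genes, 1316 were called for imbalance. Leaving out a mouse gave 181 to 514, with fewer mice to test on, and 5 to 8 of the 10 members in place of 9. With the replicate block 775 genes were called and 8 members, and Gstm1 had an adjusted p of 0.0644 (limma). Same-numbered mice of the crosses share only a number, and their deviations correlated over genes at 0.146 in log2 odds and 0.00375 in log2(FPKM + 1). Between the crosses, 3 genes were called in frequency, 1 with wider limits on the frequency, and 0 to 6 when a mouse was left out. In expression 4 genes were called, all 4 lower with an MSM mother, against 20 (4 higher and 16 lower) with each mouse scaled to the same sum, 285 with the replicate block, and 13 to 21 when a mouse was left out. The cause of these changes was not tested. No member was called between the crosses under any of them. At limits of 0.9 and 0.1, 1 and 0 members were past the limits, and leaving out a mouse gave 3 to 4 above 0.8 and 1 below 0.2. Pairs with a common direction stayed at 20 of 21 in both families, but this count could not have changed. A common direction is kept when a mouse is left out, and the exceptions were split 2 against 2. The change of scale keeps the order of 2 genes within a mouse.

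Some values that were not called changed sign when a mouse was left out. The imbalance of Mgst1 ran from -0.13 to 0.72 in log2 odds. The difference between the crosses in log2 odds ran from -0.21 to 0.15 for Gstm2, from -0.21 to 0.00701 for Gstm7 and from -0.26 to 1.43 for Mgst1. In expression it ran from -0.29 to 0.0635 for Gstm3, from -0.18 to 0.43 for Gstm5, from -0.0877 to 0.30 for Gstm7 and from -0.29 to 0.0830 for Gsto1. Gstm1 minus Mgst1 ran from -0.28 to 0.35 in log2 odds, and Gstm2 minus Gstm5 from -0.24 to 0.15. On the frequency itself, Gstm2 minus Gstm5 was 0.00317, of the opposite sign to its log2 odds. Scaling to the same sum gave -0.0211 for the expression difference of Gstm7.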

Other observations

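In the glutathione list, 0 of the 43 listed genes were called between the crosses in expression by limma, and 4 (9.30%) had an unadjusted p under 0.05, where 780 of all 8797 genes (8.87%) had. They are named here after their values were seen. Glrx, a cytosolic glutaredoxin, had 64.7 and 68.9 FPKM with an MSM mother and 43.3 and 45.2 FPKM with a B6 mother (limma adjusted p = 0.354). Chac1, which degrades glutathione, had 3.85 and 5.67 FPKM against 1.78 and 2.44 FPKM (limma adjusted p = 0.373). Gsta2, an alpha-class transferase, had 282 and 196 FPKM against 118 and 146 FPKM (limma adjusted p = 0.445), and Gsta1 had 78.5 and 52.6 FPKM against 47.4 and 18.5 FPKM (limma adjusted p = 0.561). The alpha-class genes have similar copies, and the reads they share were not measured.

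The 2 genes of the list with a frequency on the proximal side of the limits had scattered values. Gsta3, at a mean of 611 FPKM, had frequencies of 1, 1, 0.333 and 0 in the mouse order of the report, and Abcc3, an export pump at 96.2 FPKM, had 0, 1, 0.714 and 0.5. Neither was called for imbalance (limma adjusted p = 0.373 for Gsta3 and 0.930 for Abcc3). Values such as 0, 0.333, 0.5 and 1 are what few allele-assigned reads would give. The number of such reads is unknown, and FPKM do not give it.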
